A study of Homo sapiens with 2 samples.

Results

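The genes described here are EIF1, EIF3B, EIF4A3, EIF4G3, DDX3X and EEF2, which encode factors of translation or close relatives of them. They were chosen by measured values, because the deposited annotation names each of them for a peak of RNA recovered with eIF4A1, and every peak carrying their gene IDs was taken. Each gene has 1 peak, so the 6 genes hold 6 of the 1919 annotated peaks and are 6 of the 1540 gene IDs named outside intergenic sequence. Having a peak is therefore how they were selected and is not a result. The folds, −log10 p values, −log10 q values and reads below are descriptions, and no test was made on them.

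The peaks come from RNA immunoprecipitation sequencing in DU145, an established human prostate cancer cell line, to find RNAs that associate with eIF4A1. Cytoplasmic lysate was divided between beads carrying a rabbit antibody to eIF4A1 and beads carrying control rabbit IgG, and no drug, gene edit or other treatment is named in the labels. There was 1 eIF4A1 library and 1 IgG library, so no value has a replicate error, and every interval below covers counting error only. Peak locations do not measure expression, so the cell identity could not be checked by levels. Of the markers examined, 0 of 6 epithelial, 1 of 3 mesenchymal (FN1), 0 of 5 luminal prostate and 0 of 4 blood and stroma genes had a peak. Each FN1 peak rested on 3 reads. Over all protein-coding genes 6.83% had a peak, so nothing is read from counts in lists this short.

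Translation of most mRNAs begins when the cap-binding complex eIF4F, made of the cap-binding protein eIF4E, a scaffold eIF4G and the helicase eIF4A, prepares the mRNA leader for the small ribosomal subunit. That subunit arrives with eIF3, eIF1 and other factors and scans to the start codon. After the subunits join, elongation factors bring aminoacyl-tRNAs and move the ribosome along the message. EIF1 encodes the factor that guards start-codon selection, EIF3B a core subunit of eIF3, and EIF4G3 a scaffold of the eIF4G family. EIF4A3 is an eIF4A paralog that acts mainly in the exon junction complex, DDX3X is a DEAD-box helicase that promotes translation of mRNAs with structured leaders, and EEF2 encodes the factor that translocates the ribosome.

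Of the 6 peaks, those of EIF1, DDX3X and EEF2 lay nearest to a gene start listed in the RefSeq start windows used here, and EIF1B, the paralog of EIF1, also had a peak near its start. Their start sites are therefore printed below as landmarks. Each line gives the sense strand from RefSeq (GRCh38.p14), with 30 bases before the start in lower case and the first 15 transcribed bases in capitals. The printed bases do not lie in the peaks, which begin 64 or more bases downstream of the start shown. For DDX3X, the second of 3 listed starts is shown.
EIF1, chr17:41688855-41688899, plus strand: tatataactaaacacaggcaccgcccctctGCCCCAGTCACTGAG
EIF1B, chr3:40309677-40309721, plus strand: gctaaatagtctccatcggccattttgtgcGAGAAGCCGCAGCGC
DDX3X, chrX:41334132-41334176, plus strand: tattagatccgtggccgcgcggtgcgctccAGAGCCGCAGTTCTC
EEF2, chr19:3985449-3985493, minus strand: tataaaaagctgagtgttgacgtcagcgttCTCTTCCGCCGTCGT

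The EEF2 transcript opens with a C and a run of 7 pyrimidines, the layout of the 5′ terminal oligopyrimidine motif known from mRNAs of the translation machinery. A run of at least 5 pyrimidines that begins with C at the annotated start was present in 4.07% of 35116 RefSeq start windows. A run of at least 7 was present in 2.10%. None of the start windows used here for EIF1, EIF1B, EIF3B, EIF4A3, EIF4G3 and DDX3X had either run. The match describes the listed start alone, and no peak covered it. The G+C share of the 300 bases around the main start was 66.3% for EIF1, 64.3% for EEF2, 64.0% for EIF4A3 and 61.0% for EIF3B. For EIF3B this start, at 2354827, lies inside the RefSeq gene, whose 5′ end is at 2354086. The median over all windows was 58.7%, with quartiles of 47.0% and 68.0%, so these 4 genes lay between the quartiles. The 3 start windows of DDX3X had 73.3%, 60.7% and 60.3%, and the 2 of EIF4G3 had 65.0% and 38.7%.

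Each fold is the authors' deposited value, the eIF4A1 reads stacked at the summit over a background estimated from a control, with 1 added to each. The formula of the peak caller was solved for reads and background, given that fold and its −log10 p. Reads came out whole, within 0.01, in 1920 of 1920 peaks of the track. The recovered background also fell on steps. In 1920 of 1920 peaks it was either the lowest value, 0.00298, or a whole multiple of 0.00176 within 0.02 of a step. It stood at 0.880 in 65 peaks and at 0.0176 in 521 peaks, which are 50.0-fold apart. With the caller's usual control windows of 1 kb and 10 kb, these steps are the values of 1 control read at the summit (0.880), in the 1 kb around it (0.0176) and in the 10 kb around it (0.00176). The ratio of the first 2 steps gives an extension of 20 bases per read, which is also the width of the narrowest peak. A control read weighed 0.880 of an eIF4A1 read, which under the caller's scaling makes the control library 1.14 times as large as the eIF4A1 library. If the caller's usual human genome size of 2700000000 was set, the lowest background corresponds to about 402000 eIF4A1 reads. The sources used here do not say whether the IgG library or the input was the control.

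EIF1 had the highest of the 6 folds. Its peak (chromosome 17, 41688949 to 41689059, hg38) had a fold of 8.27, a −log10 p of 15.1 and a −log10 q of 8.34. At its summit stood 8 eIF4A1 reads (95% exact Poisson interval 3.45 to 15.8) and 0 control reads. The background of 0.0880 corresponds to 5 control reads in the 1 kb around the summit, or to 50 in the 10 kb around it. The deposited values cannot separate these readings, because the caller keeps the larger of the local estimates. Only 15 of the 1919 annotated peaks had a higher fold, and 43 had a higher −log10 q. By reads its place was lower, with 108 peaks above it and 40, itself included, at 8 reads. Its width of 111 bases was exceeded by 225 peaks.

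The other initiation factor of the small subunit, EIF3B, had a fold of 5.03 and a −log10 q of 2.53 (chromosome 7, 2364439 to 2364478). It rested on 5 eIF4A1 reads (interval 1.62 to 11.7) and 0 control reads at the summit, over a background of 0.194. That background equals 11 control reads in 1 kb or 110 in 10 kb. EIF3B had the lowest −log10 q of the 6 genes, and 78.6% of annotated peaks had a higher one, although 22.4% had a higher fold.

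EIF4G3, the eIF4G scaffold, had a fold of 4.91 and a −log10 q of 5.14 (chromosome 1, 20969484 to 20969512). Its 4 eIF4A1 reads (interval 1.09 to 10.2) stood over the lowest background of the 6, 0.0176, equal to 1 control read in 1 kb or 10 in 10 kb. This was also the median background of all annotated peaks. EIF4G3 thus had fewer reads than EIF3B and a higher −log10 q.

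The DEAD-box helicase genes had like read numbers. EIF4A3 had a fold of 5.77 and a −log10 q of 5.44 on 5 eIF4A1 reads (chromosome 17, 80140016 to 80140036; interval 1.62 to 11.7). Its background of 0.0405 is no multiple of the 1 kb step and equals 23 control reads in 10 kb (interval 14.6 to 34.5), with at most 2 in the 1 kb around the summit. DDX3X had a fold of 4.67 and a −log10 q of 3.10 on 4 eIF4A1 reads (chromosome X, 41334266 to 41334285; interval 1.09 to 10.2). Its background of 0.0704 equals 4 control reads in 1 kb or 40 in 10 kb. The DDX3X peak was 20 bases wide, the length to which the caller extends 1 read, and that of EIF4A3 was 21 bases. Reads that all begin at 1 position would give a width of 20 bases, but a width alone does not show where reads begin. The DDX3X summit stood at 41334268, near the first base of its peak, and the placement of its reads was not tested. A width of 20 bases was common, found in 775 of the 1920 peaks of the track. The sources used here do not say how duplicate reads were treated.

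EEF2, the translocation factor, had the highest background of the 6 genes, 0.294, which only 149 of 1919 peaks exceeded. It equals 167 control reads in the 10 kb around the summit (interval 143 to 194), with at most 16 in the nearest 1 kb. This window holds 65.6% of the gene. The control therefore also held reads from the 10 kb around the EEF2 summit, while 0 control reads lay at the summit itself. Over this background stood 6 eIF4A1 reads (interval 2.20 to 13.1), for a fold of 5.41 and a −log10 q of 2.82 (chromosome 19, 3984146 to 3984293). At 148 bases the EEF2 peak was the widest of the 6, and 116 annotated peaks were wider.

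**Figure D1:**
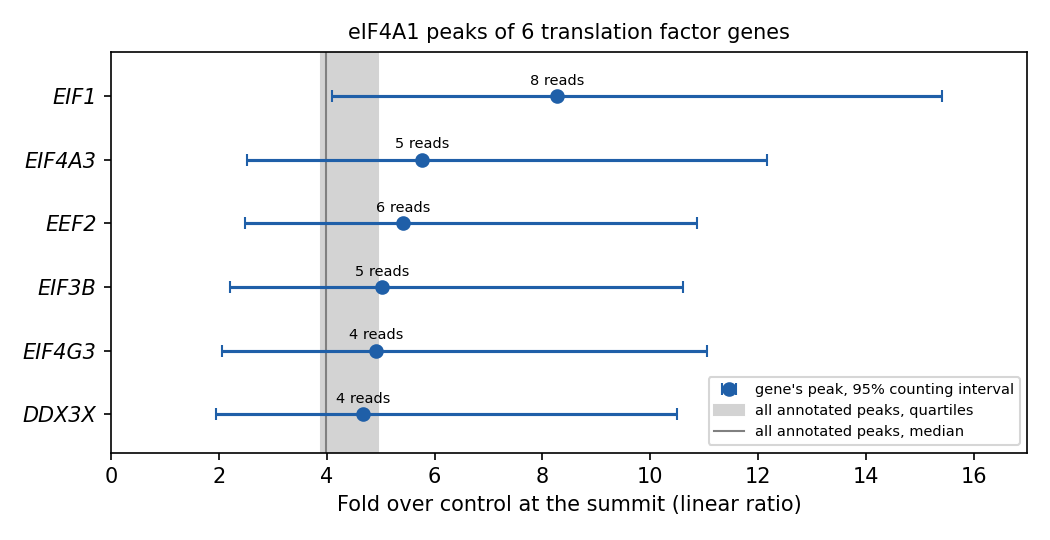
Fold over control at the summit (x axis, linear ratio) for the peak of each gene, with the 95% Poisson interval of its eIF4A1 reads, and the quartiles and median of all 1919 annotated peaks in grey. The folds run from 4.67 for DDX3X to 8.27 for EIF1, and the 6 intervals overlap.

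By fold the order was EIF1, EIF4A3, EEF2, EIF3B, EIF4G3 and DDX3X. Counting intervals on the fold ran from 4.09 to 15.4 for EIF1, from 2.52 to 12.2 for EIF4A3 and from 1.95 to 10.5 for DDX3X. All 6 intervals overlapped, so the order was not resolved at this depth. The median fold of the 6 genes was 5.22, against 3.99 for all annotated peaks, and the median reads were 5 against 3. The genes were chosen with these values known, so the medians are descriptions and carry no test. A −log10 q of at least 5 was reached by 3 of the 6 peaks (EIF1, EIF4A3 and EIF4G3), against 26.3% of all annotated peaks. A fold of at least 5 was reached by 4 of 6 (EIF1, EIF4A3, EEF2 and EIF3B), against 22.5%.

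The order by −log10 q differed from the order by reads. EEF2 and EIF3B, with 6 and 5 reads, had the lowest −log10 q values, and their backgrounds were the highest. EIF4G3, with 4 reads over the lowest background, had a higher −log10 q than EEF2, EIF3B and DDX3X. The lowest −log10 p among the deposited peaks was 5.59. At its own background, EIF1 would reach that value with 3 reads and had 8. The margin was smaller elsewhere, with 5 reads needed and 6 found for EEF2, 4 and 5 for EIF3B, 3 and 4 for DDX3X, 3 and 5 for EIF4A3, and 2 and 4 for EIF4G3.

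None of the 6 summits held a control read, which was also the case for 94.1% of annotated peaks and so is not particular to these genes. Had 1 control read stood at each summit, the fold would be 4.79 for EIF1, 3.72 for EEF2, 3.19 for EIF3B and EIF4A3, and 2.66 for EIF4G3 and DDX3X. The −log10 p would then be 6.40 for EIF1 and from 2.67 to 4.42 for the others. EIF1 alone would still reach the lowest deposited value, as 7.71% of annotated peaks would.

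**Figure D2:**
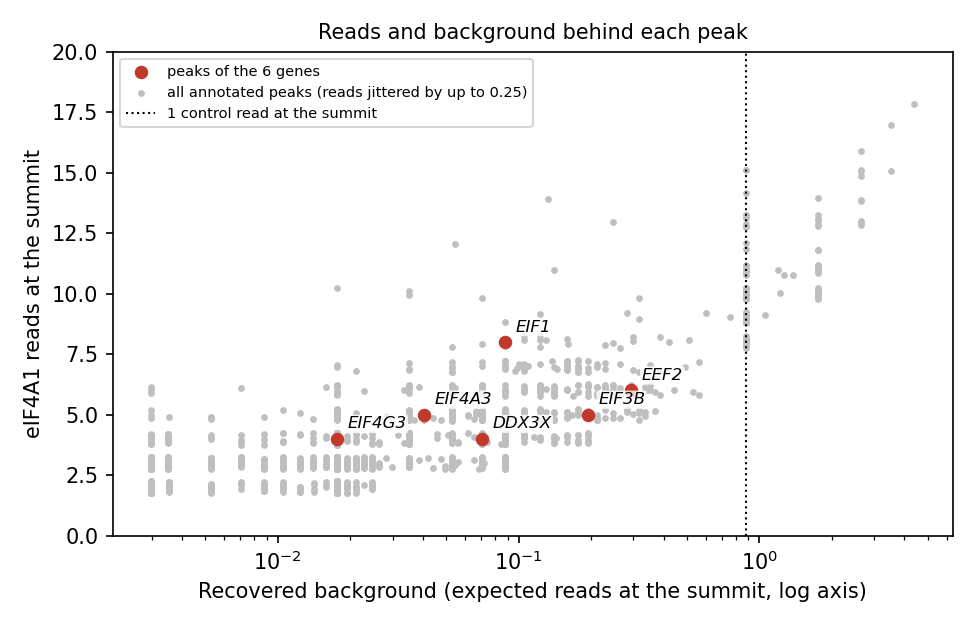
eIF4A1 reads at the summit (y axis) against the recovered background in expected reads (x axis, log scale) for the peaks of the 6 genes in red and all annotated peaks in grey. EIF1 stands highest of the 6 at 8 reads, EEF2 lies farthest right at a background of 0.294, and all 6 lie left of the dotted line that marks 1 control read at the summit (0.880).

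The deposited annotation placed 5 of the 6 peaks in the promoter class within 1 kb of a transcript start, against 39% of all annotated peaks, and that of EIF4G3 in an exon. Measured from the 5′ end of the RefSeq gene, the summits were spread much more widely. The EIF1 summit lay 159 bases into the gene and the DDX3X summit 960 bases. That of EEF2 lay 1173 bases in, that of EIF4A3 7105 and that of EIF3B 10356. Of the 5 peaks in this class, 2 were thus within 1 kb of the gene's own 5′ end. Over all peaks of the class with a RefSeq gene, 282 of 748 were (37.7%, 95% exact Clopper-Pearson interval 34.2 to 41.3).

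The class rests on the transcript that the deposited table names. For EIF3B that transcript starts 10238 bases inside the gene and is 2796 bases long. For EIF4A3 it starts 6652 bases inside and spans 791 bases, and for EEF2 it starts 351 bases inside and spans 1859. The EIF4A3 summit stood 55.7% of the way along the gene and the EIF3B summit 38.8%. For these genes the word promoter describes a start of a shorter transcript and not the start of the gene. By contrast, the transcript named for EIF1 starts 50 bases inside the gene and its peak covers bases 64 to 174 counted from the gene's 5′ end.

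DDX3X has 3 starts in the RefSeq windows. Its peak began 958 bases downstream of the first, 104 bases downstream of the second and 100 bases downstream of the third. The table's transcript starts 949 bases inside the gene, 11 bases before the summit. The EIF4G3 peak lay deep in a gene of 370606 bases, 207404 bases from its 5′ end. The table puts it in exon 9 of 33 of a long transcript, although the transcript it names as nearest ends upstream of the summit.

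Each of the 6 summits lay inside its named gene and inside no other RefSeq gene. Of 11 RefSeq pseudogenes named after these genes, 0 held a summit. How reads that match both a gene and its pseudogene were placed is not given, so nothing is read from this count. The table gives no strand for a peak, so antisense RNA cannot be told apart from the mRNA.

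**Figure D3:**
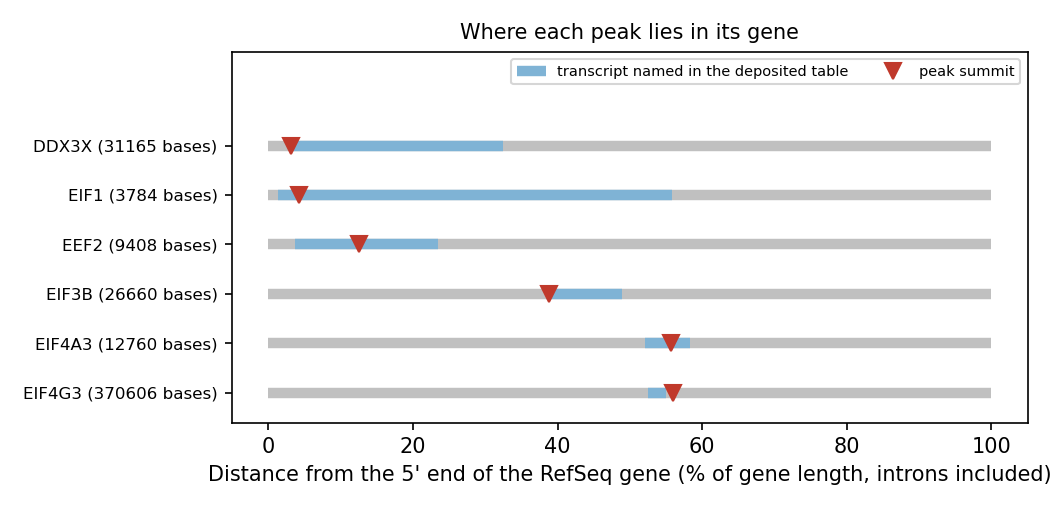
Position of each summit (red) along its RefSeq gene (grey, x axis in % of gene length from the 5′ end, introns included), with the transcript named in the deposited table in blue. DDX3X, EIF1 and EEF2 have their summits in the first 12.5% of the gene, and EIF3B, EIF4A3 and EIF4G3 between 38.8% and 56.0%.

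Other genes of translation were examined in 9 lists of 140 genes, which hold the 6 genes too. A peak was named for 13 of the 140 (9.29%), against 6.83% of the 20056 protein-coding RefSeq genes. Of these 13, 6 are the chosen genes, so the share is raised by the choice and nothing is read from it. Among the other 7 were EIF1B, SMG6, UPF1, EEF1D, MKNK2 and RHEB.

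Among factors of the preinitiation complex and start-codon selection, 3 of 29 genes had a peak, namely EIF1, EIF1B and EIF3B. The share over all protein-coding genes was 6.83%, and EIF1 and EIF3B were chosen for their peaks, so nothing is read from this count. EIF1B had a fold of 6.14 and a −log10 q of 4.22 on 6 eIF4A1 reads (chromosome 3, 40309907 to 40309953; interval 2.20 to 13.1). Its fold lay between those of EIF1 and EIF4A3. The 2 paralogs had their peaks at like distances from the transcript start, with the summit of EIF1 159 bases and that of EIF1B 204 bases downstream. The sequences of EIF1 and EIF1B were not compared here, and how the authors placed any reads that match both is not given. Whether the 2 peaks lie in coding sequence or share reads was not tested. EIF3B was the only one of the 13 eIF3 subunits in the list with a peak, and it was chosen for that peak.

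In the eIF4F list, 1 of 16 genes had a peak, EIF4G3. EIF4A1, EIF4A2, EIF4E, EIF4G1 and EIF4G2 had none. A gene with no peak can still have been bound, because a peak needed at least 2 reads at 1 summit at this depth. More were needed over a higher background, as with the 5 reads needed at that of EEF2. Among other helicases of translation, DDX3X was 1 of 10 with a peak. No gene of the eIF2 exchange factor and kinase list (0 of 11) or of termination and ribosome rescue (0 of 8) had one, nor did the 20 cytosolic aminoacyl-tRNA synthetases by the deposited gene. By gene body GARS1, the glycyl-tRNA synthetase, held 1 summit that the table lists under another gene (fold 3.90, 3 reads). Over all protein-coding genes 6.83% had a peak, and EIF4G3 and DDX3X were chosen for theirs. Nothing is therefore read from the counts of these short lists.

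The exon junction complex and nonsense-mediated decay list, to which EIF4A3 belongs, had 4 of 13 genes with a peak (30.8%). Over all protein-coding genes the share was 6.83%. EIF4A3, chosen for its peak, was among the 4, so nothing is read from this share. UPF1, the helicase of nonsense-mediated decay, had a fold of 3.95 on 3 reads. SMG6, its endonuclease, had a fold of 2.99 on 2 reads in an intron. MAGOH, RBM8A and CASC3, the partners of EIF4A3 in the core complex, had none. At a −log10 q of at least 5 the list kept 1 of 13, against 2.1% of protein-coding genes. That gene is EIF4A3, one of the 6 chosen for their peaks, so nothing is read from this count.

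Of 20 elongation factors and their modifiers, EEF2 and EEF1D were named. EEF1D, a subunit of the exchange factor for eEF1A, had a fold of 3.91 on 3 reads, but its summit lay outside the gene, inside TIGD5. EEF2K, the kinase of eEF2, and the DPH genes, which make the diphthamide residue of eEF2, had none. Of 13 genes that carry mTOR signals to translation, RHEB, the GTPase that activates mTOR, had a peak in its 3′ UTR with a fold of 4.98, a −log10 q of 7.86 and 4 reads. MKNK2, a kinase of eIF4E, had 3.68 on 3 reads. The share over all protein-coding genes was 6.83%, and EEF2 was chosen for its peak, so nothing is read from these 2 counts.

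**Figure D4:**
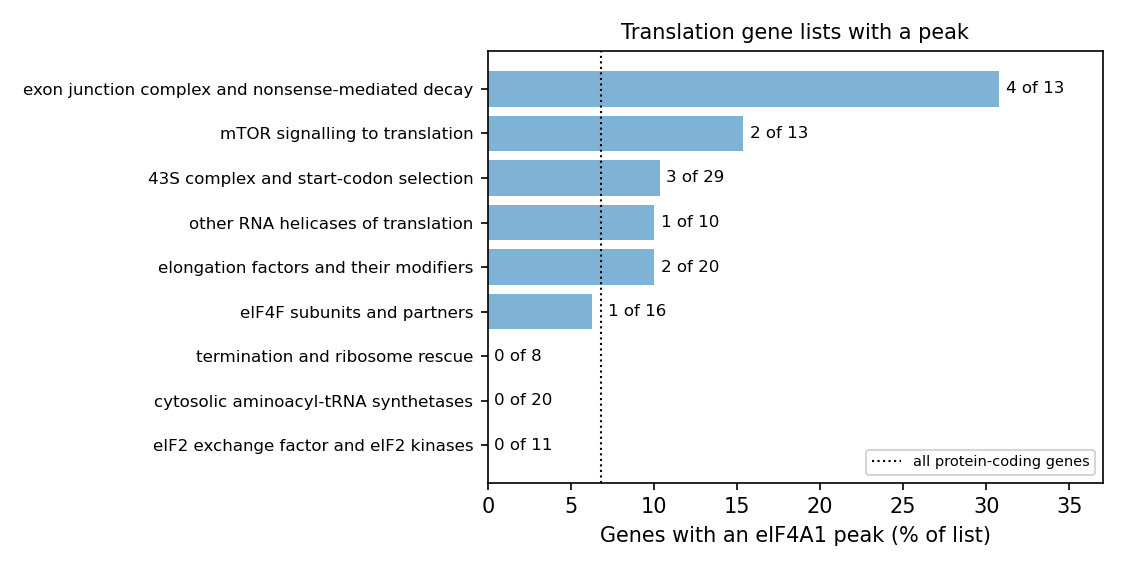
Share of each gene list with an eIF4A1 peak (x axis, % of list, with the counts beside each bar), and the share over all protein-coding genes as a dotted line at 6.83%. The exon junction and decay list stands highest at 4 of 13, which include EIF4A3, chosen for its peak, and 3 lists have 0.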

How the data were processed

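RNA immunoprecipitates of DU145 cells were grouped by the antibody label into 1 eIF4A1 and 1 IgG library. The tools MACS2, BWA, ChIPseeker, DESeq2, Picard, Salmon and STAR are listed, with no role or version, per the submitters' processing notes. Per the file headers, the peak track is in narrowPeak layout. In its column order the authors deposited a score per peak, a linear fold against the control, and −log10 p and −log10 q. It is filed under the IgG sample, but its peaks are named after the eIF4A1 library. The annotated table deposited by the authors gives summits, −log10 q, class and nearest gene. Peak names carry the word filtered, and the sources used here do not describe the filter.

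Tables were joined on peak name, and genes were matched to RefSeq (GRCh38.p14) by gene ID. Reads x and background b were solved from fold = (x + 1)/(b + 1) and the Poisson probability of more than x reads. The procedure was tested on data simulated with this same formula, which checks the solving and not the caller's use of the formula. Python 3.11.15, numpy 2.4.6, scipy 1.17.1 and pandas 2.3.3 were used. The fold sets a stack over 20 bases against a control averaged over up to 10 kb of genome, introns included.

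Named are the 6 genes, the genes of the lists with a peak, and their partners; 1 such gene is not reported here. DEAD- and DEAH-box genes, GARS1, TIGD5 and STOX1 were added after their values were seen. Members and lists were chosen with earlier results of these data known. Peak sequences were not analysed here. With 1 library per group no test was made.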

Additional observations from a re-analysis of the deposited data

How the results depend on the processing

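Of the 6 peaks, a −log10 q of 5 or more kept 3, and leaving out the promoter classes kept 1, that of EIF4G3. Demanding the lowest deposited −log10 p over 1 control read at the summit, a filter added once the data had been seen, kept 1 (EIF1). The 13 listed genes with a peak became 4 when −log10 q had to reach 5 and 6 when the fold had to reach 5. They became 6 when 5 reads were required, also added once the data had been seen. By construction fewer peaks entered these settings. The other 17 alternatives stayed within 1.5 times the count or within the counting interval. Among them were RefSeq gene bodies, merging of peaks within 500 bases, intergenic peaks, folds with 1 control read at the summit, and reads taken from the fold alone. Merging and gene bodies could not lower the 6, because each gene has 1 peak with its summit inside the gene. The folds with 1 control read fell for all 6 genes, from 4.91 to 2.66 for EIF4G3. They stayed only within counting intervals that are wide at 4 to 8 reads. Assignment by gene body also gave 13 listed genes, losing EEF1D and adding GARS1. The G+C share of the peaks was not run, because the bases under the peaks were not among the sequences used here. No paired analysis was possible because there is 1 library per antibody, and no replicate could be left out.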

Other observations

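DDX3X and the eIF4A paralogs belong to the DEAD-box helicases. Genes named DDX or DHX, for the DEAD and DEAH boxes, were examined after some had been noticed among the peaks. The eIF4A paralogs are counted with the genes named EIF. Of 54 protein-coding genes named DDX or DHX, 8 had a peak (14.8%, 95% exact Clopper-Pearson interval 6.62 to 27.1). Counted the same way, 5 of 56 genes named EIF (8.93%, interval 2.96 to 19.6) and 2 of 15 named EEF (13.3%, interval 1.66 to 40.5) had one. All 3 intervals contain the 6.83% of protein-coding genes, and each family holds genes chosen for their peaks, so nothing is read from these shares. The DDX and DHX genes were DHX34 (fold 4.97, −log10 q 6.62, 4 reads), DDX50 (4.83, 4 reads), DHX8 (4.75, 4 reads), DHX38 (4.68, 5 reads), DDX3X (4.67, 4 reads), DDX11 (3.93, 3 reads), DHX30 (3.93, 3 reads) and DDX27 (2.95, 2 reads). The DDX50 summit lay outside that gene, inside STOX1, which leaves 7 of 54 by gene body, and EEF1D likewise leaves 1 of 15 for EEF. DHX34 acts in nonsense-mediated decay, and DHX8 and DHX38 in pre-mRNA splicing.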
